A study of Mus musculus with 6 samples.

Results

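The circadian clock genes examined here were *Arntl*, *Clock*, *Per1*, *Per2*, *Per3*, *Cry1*, *Cry2*, *Nr1d1*, *Nr1d2* and *Dbp*, chosen by name from the deposited expression table. All 10 were listed, out of 55487 genes in all. The epithelium had been taken from lower first molars of mice at postnatal day 2.5, and RNA-seq gave 3 libraries from Wnt10aflox/flox mice (control) and 3 libraries from K14-Cre;Wnt10aflox/flox mice (cKO). Both groups carry the floxed *Wnt10a* alleles, and the cKO mice also carry Cre recombinase under the keratin 14 promoter, which is active in epithelium. A library is a pool of several molars, whose number differs between the sources, and not a single animal. The hour at which the molars were collected is not given in the sources used here, and differences in collection time between libraries were not tested. Values are TPM, a unit of transcript abundance scaled by transcript length, so that levels of different genes can be compared. The sequencing depth of the libraries is unknown, because TPM do not keep it.

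The mammalian clock is a feedback loop that most cells run on their own. BMAL1 (encoded by *Arntl*) and CLOCK form a dimer that binds E-boxes in DNA and activates the *Per* and *Cry* genes, whose protein products return to the nucleus and repress the dimer. The same dimer activates *Nr1d1* and *Nr1d2*, which encode the REV-ERB nuclear receptors that repress *Arntl*, and *Dbp*, which encodes an output transcription factor that binds D-boxes. *Arntl* therefore peaks at the opposite time of day from *Dbp*, *Nr1d1* and *Per3* in tissues with a running clock. Clock proteins are present in ameloblasts, the enamel-secreting cells of the molar epithelium, and enamel is laid down in daily increments.

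No difference between cKO and control passed the test for any of the 10 clock genes, and for 9 of them the libraries of both groups overlapped. The test was limma on log2(TPM + 1), over 13719 genes whose mean reached 1 TPM. The criteria, after the methods of the study, were an unadjusted p under 0.05 together with a cKO mean more than 20% away from that of control. By these, 0 of the 10 were called, where 4.02% of all tested genes were, 2.47% lower and 1.55% higher in cKO. The smallest unadjusted p among them was 0.215 from limma, for *Per1*, and every adjusted p (Benjamini-Hochberg over all tested genes) was 1.00, where 0.0146% of all tested genes had an adjusted p below 0.05. All 10 clock genes passed the filter on low values. Control replicate 2 was the highest library for 6 of the 10, where it was the highest for 38.4% of all tested genes. The lowest was cKO replicate 3 for 5 of them, control replicate 3 for 2 and cKO replicate 1 for 2. These were the lowest for 18.8%, 29.8% and 25.3% of all tested genes.

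*Wnt10a*, the deleted gene, lay between 51.2 and 57.9 TPM in control and between 21.8 and 32.2 TPM in cKO, so the libraries separated as labelled. The dental epithelium markers *Krt14* and *Krt5* were abundant in every library. *Krt14* had 2190 to 2773 TPM in control against 2219 to 2747 in cKO, and *Krt5* had 2161 to 3713 TPM in control against 1945 to 3224 in cKO. Markers of odontoblasts and dental mesenchyme were present as well, led by *Col1a1* with 1795 to 3127 TPM in control against 2172 to 2444 in cKO. In such bulk samples, fewer cells of a type and less RNA per cell cannot be told apart.

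The regulatory sequences around the clock genes are shown because the arms of the loop are named after the elements in them. Promoter windows from 250 bases before to 50 bases after each annotated start were taken from RefSeq on GRCm38.p6. Windows were available for 9 of the 10 genes, 13 in all, and *Per2* had none and was not searched. Elements outside these windows were not searched either. The E-box was searched as CACGTG and the D-box as TTATGTAA or TTACGTAA, on both strands. For the element read by the ROR and REV-ERB receptors, the loose pattern TNGGTCA was searched on both strands, where N is any base. Below, ROR element means a match to that pattern. Of 32851 promoter windows, 7.15% held the E-box, 1.06% the D-box and 11.0% the ROR element. Among the clock genes, 2 held an E-box (*Per1* and *Cry1*), 1 a D-box (*Per3*) and 3 a ROR element (*Arntl*, *Per3* and *Cry2*) in at least 1 window, counts per gene that are not on the scale of the shares per window. Stretches upstream of an annotated start are given for 4 genes, 5′ to 3′ on the strand of the gene, with the matches in capitals. The last capitals of *Per3* are the ROR element read from the other strand.
*Arntl*, chr7:113207240-113207315, forward strand: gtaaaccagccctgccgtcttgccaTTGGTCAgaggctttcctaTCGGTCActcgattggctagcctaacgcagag
*Per1*, chr11:69098758-69098813, forward strand: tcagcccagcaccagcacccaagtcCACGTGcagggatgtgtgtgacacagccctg
*Per3*, chr4:151044752-151044895, reverse strand: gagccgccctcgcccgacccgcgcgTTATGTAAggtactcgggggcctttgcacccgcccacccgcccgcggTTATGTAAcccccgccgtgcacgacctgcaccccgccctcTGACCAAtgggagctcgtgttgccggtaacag
*Cry1*, chr10:85185084-85185139, reverse strand: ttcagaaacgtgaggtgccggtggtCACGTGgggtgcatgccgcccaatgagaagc
The 2 D-boxes of *Per3* begin 205 and 158 bases before its start, and the matches shown for *Arntl* begin 200 and 181 bases before the annotated start that its window is placed on. These *Arntl* matches read TTGGTCA and TCGGTCA. A further *Arntl* match, TAGGTCA, begins after another annotated start and lies outside the stretch shown. The E-boxes of *Per1* and *Cry1* begin 166 and 60 bases before the start, which for *Per1* is an annotated start inside the gene. In these stretches no match overlaps another. A match is a description of the letters and was not tested as a binding site.

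The activators were examined first. In the GENCODE annotation of GRCm38, *Arntl* (ENSMUSG00000055116) lies on the forward strand at chr7:113207465-113314126, and its longest protein-coding transcript has 21 exons and 2976 bases. *Arntl* was measured at 5.6, 5.35 and 4.97 TPM in control replicates 1, 2 and 3, against 4.17, 4.95 and 4.78 in the cKO replicates of those numbers. Every cKO library was thus below every control library, although the nearest pair, at 4.97 and 4.95 TPM, was almost level. The exact two-sided permutation test gave p = 0.1, its lower limit with 3 libraries a group. *Arntl* was the only 1 of the 10 whose groups did not overlap, where 9.64% of all tested genes had no overlap, 6.13% lower and 3.51% higher in cKO. Its mean was 5.31 ± 0.317 TPM (SD, n = 3) in control and 4.63 ± 0.410 TPM (SD, n = 3) in cKO, a log2 fold change of -0.16 (standard error 0.19, 95% interval -0.62 to 0.29) with an unadjusted p of 0.421 from limma. Its highest library was 1.34 times its lowest, a narrow range that among the 10 genes only *Nr1d1* undercut, at 1.32 times.

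*Clock* (ENSMUSG00000029238) lies on the reverse strand at chr5:76209868-76304792, and its longest protein-coding transcript, of 9744 bases, is the longest among the 10 genes. *Clock* was measured at 7.16, 12.0 and 2.52 TPM in control replicates 1, 2 and 3, against 4.29, 6.01 and 2.17 in the cKO replicates of those numbers. The 2 libraries numbered 3 were the lowest of each group, the 2 numbered 2 were the highest of each group, and the groups overlapped. The highest library was 5.54 times the lowest, the widest range among the 10 genes. *Clock* had the largest difference between the groups, 57.5% of the control mean in cKO and a log2 fold change of -0.56, but with a standard error of 0.51 and a 95% interval from -1.77 to 0.65 (unadjusted p = 0.315 from limma). *Clock* reached an unadjusted p of 0.0398 from limma without control replicate 3, with a log2 fold change of -1.07, and had -0.13 without control replicate 2. With the replicate number as a block *Clock* met the criteria, as did 9.59% of all tested genes. Its unadjusted p from limma was then 0.0300 and its adjusted p 0.507. With a correction for transcript length and GC content as well, the unadjusted p from limma was 0.0538. *Npas2*, which encodes a protein that can take the place of CLOCK in the dimer, had a mean below 1 TPM and was not tested, with 1.04, 0.50 and 1.13 TPM in control against 0.29, 0.45 and 0.50 in cKO. *Arntl2*, the paralog of *Arntl*, did not exceed 0.95 TPM in any library.

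**Figure D1:**
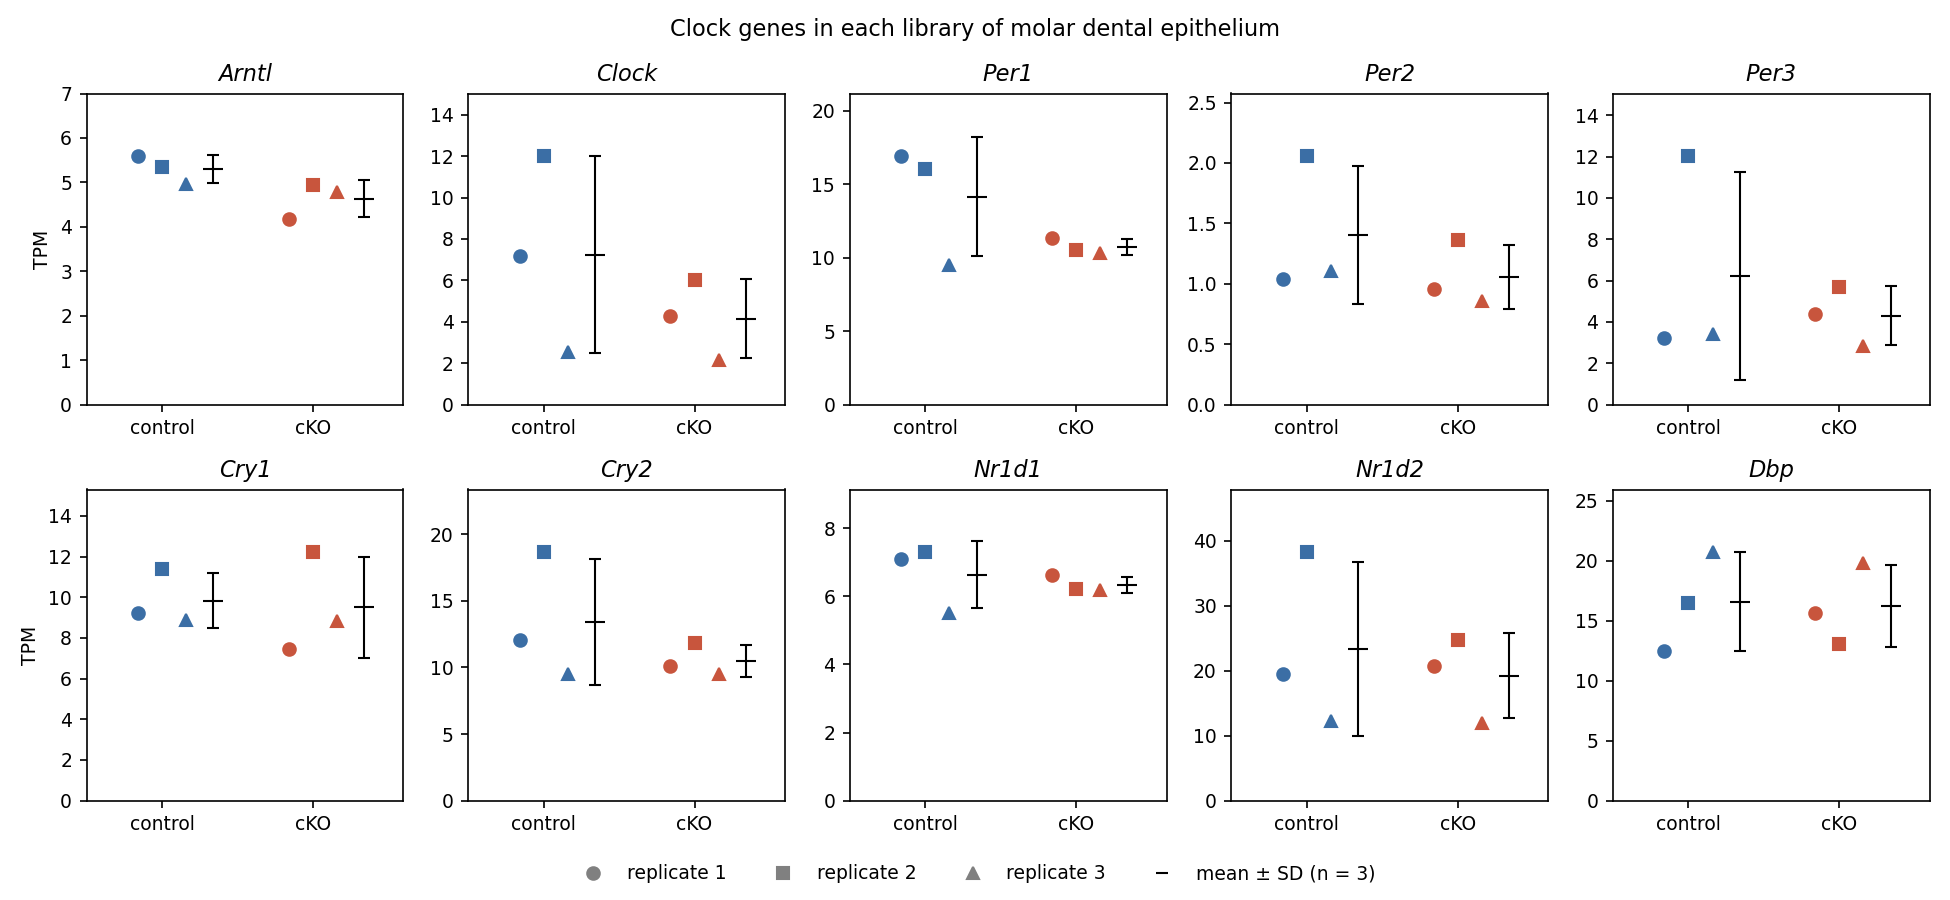
Level of each of the 10 clock genes in TPM (vertical axes start at 0) in the 3 control and 3 cKO libraries, with the replicate number as the symbol and the mean ± SD (n = 3) beside the points. The groups overlap for every gene but *Arntl*, and for *Clock* and *Nr1d2* the squares (replicate 2) are the highest and the triangles (replicate 3) the lowest point of each group.

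Of the *Per* genes, whose proteins carry the repressive arm together with the CRY proteins, *Per1* was the most abundant. *Per1* (ENSMUSG00000020893) lies at chr11:69095217-69109960 on the forward strand. Its level was 16.95, 16.03 and 9.5 TPM in control against 11.3, 10.5 and 10.4 in cKO, so that the cKO libraries were close to each other and 2 of the 3 control libraries were above them. Control replicate 3 was below every cKO library. In cKO the mean reached 75.8% of that in control, a log2 fold change of -0.33 (standard error 0.24, unadjusted p = 0.215 from limma). Without control replicate 3 the log2 fold change of *Per1* was -0.58, with an unadjusted p of 0.0199 and an adjusted p of 0.589 from limma.

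*Per2* (ENSMUSG00000055866, chr1:91415982-91459324, reverse strand) was the least abundant of the 10. It was at 1.04, 2.06 and 1.11 TPM in control against 0.96, 1.36 and 0.86 in cKO, with replicate 2 the highest library of each group. At such levels a pseudocount of 1 understates a change, and the log2 fold change was -0.20 (standard error 0.29). It was -0.33 with a pseudocount of 0.1 and -0.018 without control replicate 2. *Per3* (ENSMUSG00000028957, chr4:151003652-151044665, reverse strand) was at 3.22, 12.0 and 3.43 TPM in control against 4.37, 5.71 and 2.83 in cKO. Control replicate 2 alone stood apart, and the rest of the libraries did not separate by group. The log2 fold change of *Per3* was -0.27 (standard error 0.47) with all libraries and 0.26 without control replicate 2. Neither *Per2* nor *Per3* had an unadjusted p below 0.05 in any alternative fit.

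The *Cry* genes encode the CRY repressors, which bind the BMAL1 and CLOCK dimer directly. *Cry1* (ENSMUSG00000020038, chr10:85131700-85185064, reverse strand) was at 9.21, 11.4 and 8.90 TPM in control against 7.45, 12.2 and 8.81 in cKO. The highest and the lowest library were both from cKO, and the log2 fold change was -0.06 (standard error 0.23, 95% interval -0.60 to 0.48). *Cry2* (ENSMUSG00000068742, chr2:92403646-92434043, reverse strand) was at 12.0, 18.7 and 9.52 TPM in control against 10.1, 11.8 and 9.49 in cKO. Replicate 2 was the highest of each group and replicate 3 the lowest, and the lowest control library lay within the range of the cKO libraries. The log2 fold change of *Cry2* was -0.28 (standard error 0.26, unadjusted p = 0.313 from limma), and -0.03 without control replicate 2. The exons of *Cry2* share 295 bases with the antisense transcript *D930015M05Rik*, whose part in the *Cry2* value was not tested.

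The REV-ERB genes, which repress *Arntl*, differed from each other in their spread. *Nr1d1* (ENSMUSG00000020889, chr11:98767932-98775333, reverse strand) was at 7.09, 7.31 and 5.52 TPM in control against 6.62, 6.21 and 6.18 in cKO. All 3 cKO libraries lay between the control libraries, and the log2 fold change was -0.05 (standard error 0.19, 95% interval -0.51 to 0.41). *Nr1d2* (ENSMUSG00000021775, chr14:18204054-18239127, reverse strand) had the highest mean of the 10 genes, with 19.5, 38.3 and 12.2 TPM in control against 20.8, 24.8 and 12.0 in cKO. In both groups replicate 2 was the highest and replicate 3 the lowest, and the groups overlapped. The log2 fold change of *Nr1d2* was -0.18 (standard error 0.43), or 0.24 without control replicate 2.

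The 3′ end of *Nr1d1* overlaps *Thra*, the gene of a thyroid hormone receptor on the opposite strand, by 263 exonic bases. Whether reads were counted by strand is not given in the sources used here, so reads in this overlap cannot be told apart. *Thra* was at 81.4, 82.1 and 90.8 TPM in control against 48.5, 62.7 and 74.9 in cKO, without overlap between the groups. limma gave a log2 fold change of -0.46 (standard error 0.19), an unadjusted p of 0.0431 and an adjusted p of 1.00. *Thra* was far more abundant than *Nr1d1* in every library, and its part in the *Nr1d1* value was not tested.

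*Dbp*, the output gene, is in many adult tissues among those with the widest daily swing. *Dbp* (ENSMUSG00000059824) lies on the forward strand at chr7:45705088-45710203. Of its 2993 exonic bases, 539 overlap *Sphk2* on the opposite strand, and reads there cannot be told apart either. The part of *Sphk2* in the *Dbp* value was not tested. *Dbp* was measured at 12.5, 16.5 and 20.8 TPM in control replicates 1, 2 and 3, against 15.7, 13.1 and 19.8 in the cKO replicates of those numbers. The means were 16.6 ± 4.12 TPM (SD, n = 3) in control and 16.2 ± 3.41 TPM (SD, n = 3) in cKO, a log2 fold change of -0.02 (standard error 0.24, 95% interval -0.60 to 0.55). The highest library of *Dbp* was 1.66 times the lowest. In contrast to *Clock*, *Nr1d2*, *Per3* and *Cry2*, *Dbp* was highest in the libraries numbered 3 in both groups. With the trends of each library by length and GC content of transcripts taken out, control replicate 2 was the highest control library for *Dbp* as well.

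The order of the 10 genes by level was alike at the top and the bottom in both groups. In control, *Nr1d2* (23.3 ± 13.5 TPM, SD, n = 3) and *Dbp* came first, followed by *Per1*, *Cry2*, *Cry1*, *Clock*, *Nr1d1*, *Per3*, *Arntl* and *Per2* (1.40 ± 0.570 TPM, SD, n = 3). Among these neighbours only *Arntl* and *Per2* were apart by more than their ranges of mean ± SD. In cKO the order was *Nr1d2*, *Dbp*, *Per1*, *Cry2*, *Cry1*, *Nr1d1*, *Arntl*, *Per3*, *Clock* and *Per2*, and 4 neighbouring pairs were apart by that measure, namely *Dbp* from *Per1*, *Cry1* from *Nr1d1*, *Nr1d1* from *Arntl* and *Clock* from *Per2*. *Clock* held the sixth place in control and the ninth in cKO, with overlapping ranges to its neighbours above in both.

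All 10 genes had a log2 fold change below 0, where 60.3% of all tested genes did, and their median was -0.19 beside -0.07 over all tested genes. With quantile normalization 7 of the 10 were below 0, with *Cry1*, *Nr1d1* and *Dbp* above it, and without control replicate 2 only 6 were below 0, with a median of -0.02 over the 10 genes and 0.02 over all tested genes. The size of the log2 fold change was above its standard error for 3 of the 10, *Clock*, *Per1* and *Cry2*. The plot of fold changes with their 95% intervals shows the widest intervals for *Clock*, *Per3* and *Nr1d2* among the 10.

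**Figure D2:**
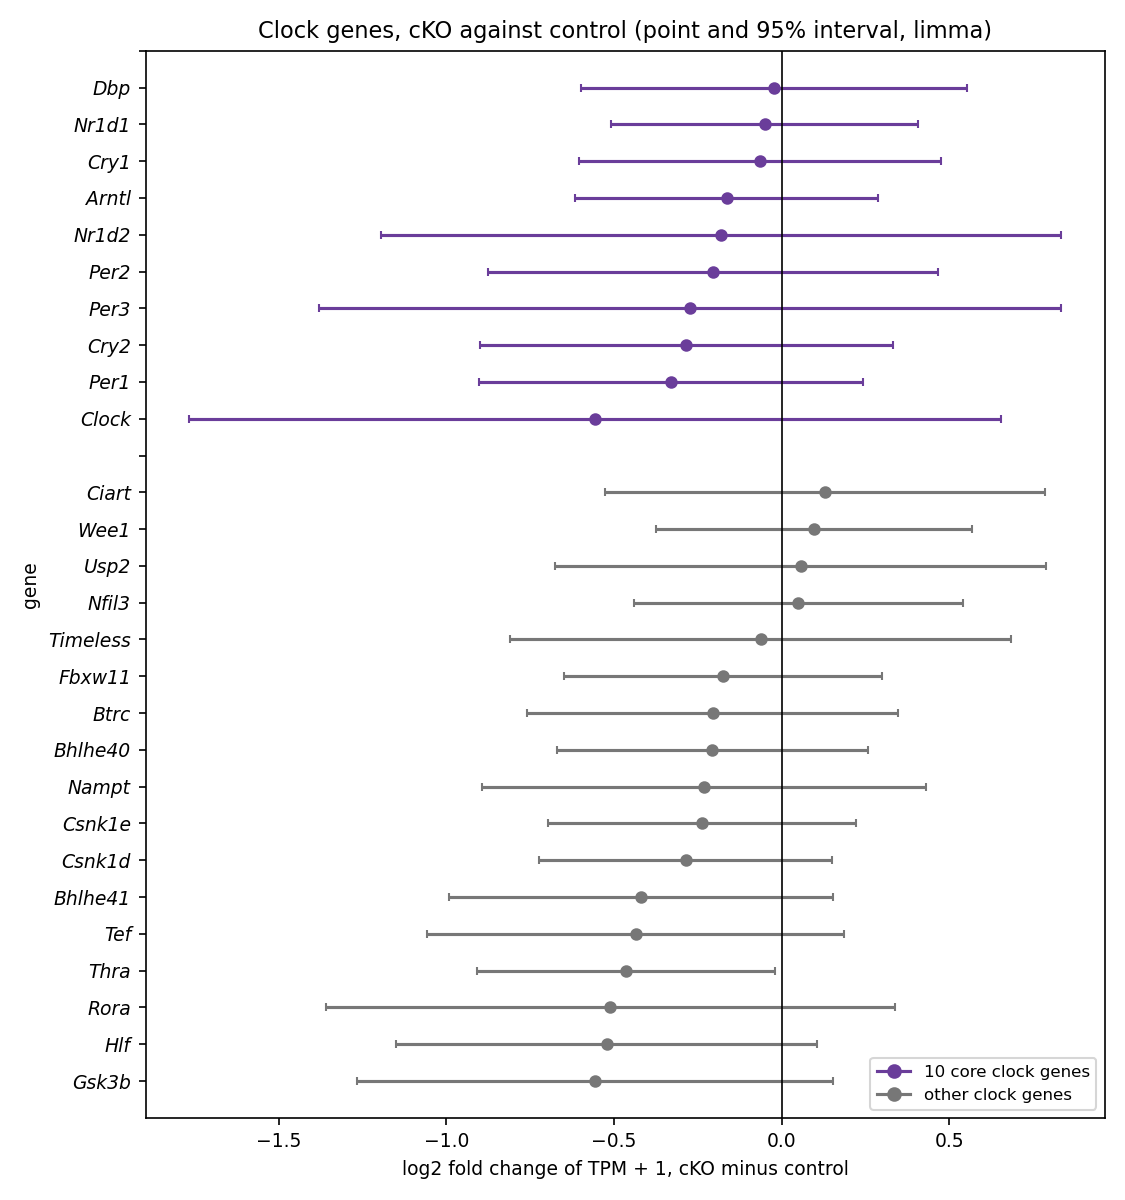
Log2 fold change of TPM + 1 (horizontal axis, cKO minus control) with its 95% interval from limma for the 10 core clock genes (purple) and tested genes of the wider clock list (grey). The interval of each of the 10 core genes includes 0, and *Thra* is the only grey gene whose interval lies below 0.

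The opposite arms of the loop were also compared within each library. The log2(TPM + 1) of *Arntl* minus the mean log2(TPM + 1) of *Dbp*, *Nr1d1*, *Nr1d2* and *Per3* was -0.58, -1.38 and -0.68 in control replicates 1, 2 and 3, against -1.10, -0.95 and -0.68 in cKO. The difference was largest in control replicate 2 and smallest in control replicate 1, so the range of the control libraries enclosed that of the cKO libraries. The means were -0.88 ± 0.436 (SD, n = 3) in control and -0.91 ± 0.208 (SD, n = 3) in cKO. *Arntl* itself ranged from 2.37 to 2.72 on the log2 scale over the 6 libraries. The mean of the other 4 genes was 4.05 in control replicate 2 and lay between 3.22 and 3.525 in the rest. In that library *Per3* and *Nr1d2* were 1.20 and 0.93 above their gene means, against 0.15 for *Nr1d1* and 0.03 for *Dbp*. The ratio of *Arntl* to *Dbp*, in TPM, was 0.448, 0.325 and 0.240 in control against 0.266, 0.378 and 0.241 in cKO. By that ratio control replicate 1 stood at the top and the 2 libraries numbered 3 at the bottom, another order than that of the difference above. These values describe the libraries and were given no test.

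**Figure D3:**
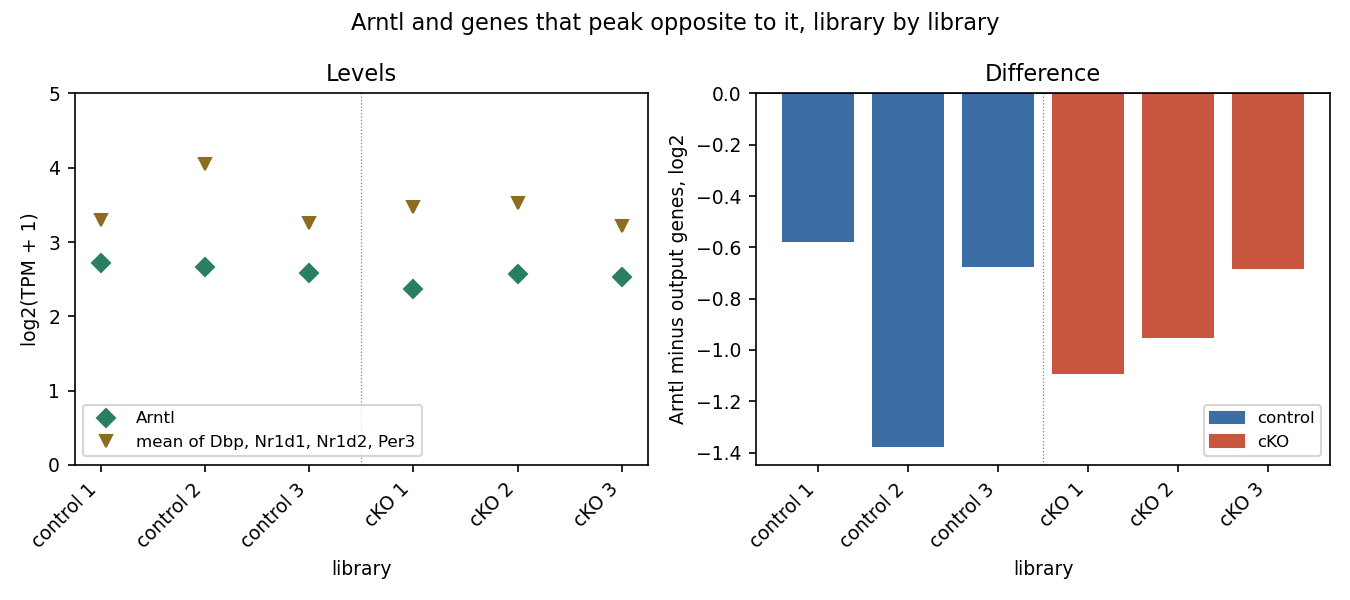
Left, log2(TPM + 1) of *Arntl* (diamonds) and the mean of *Dbp*, *Nr1d1*, *Nr1d2* and *Per3* (triangles) in each library. Right, the difference between them, which reaches from -1.38 in control replicate 2 to -0.58 in control replicate 1, with the cKO libraries in between.

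The libraries also differed in properties of all genes. Across 12188 protein-coding genes, the deviation of a library from the gene mean had a Spearman correlation with transcript length of 0.37, 0.52 and -0.25 in control replicates 1, 2 and 3, against -0.35, -0.09 and -0.26 in cKO. With GC content the correlation was -0.11, -0.42 and 0.65 in control against -0.34, -0.42 and 0.53 in cKO. These are correlations across genes of the same libraries, and genes are not independent replicates. Long transcripts, and transcripts of low GC content, were thus high in control replicate 2, and transcripts of low GC content were low in both libraries numbered 3. *Clock* and *Nr1d2* have the lowest GC content of the 10 genes, 40.9% and 41.8%, and *Dbp* has the highest, 61.6%, with the shortest transcript, of 1837 bases.

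After each library was corrected for its trend with transcript length and GC content, the standard deviation of log2(TPM + 1) over the 6 libraries went from 0.77 to 0.39 for *Clock*, from 0.60 to 0.35 for *Nr1d2* and from 0.28 to 0.21 for *Dbp*. It became larger for the other 7 genes. For *Per3* it was 0.65 before and 0.69 after the correction, with control replicate 2 still 1.12 above the gene mean. *Nr1d1* went from 0.13 to 0.28, with control replicate 3 at -0.43 and cKO replicate 3 at -0.24 from its mean. After the correction, control replicate 2 was the highest library for 8 of the 10 genes, where it was the highest for 40.2% of all corrected genes. The lowest were cKO replicate 3 for 4, control replicate 3 for 3 and cKO replicate 1 for 2 of them. These were the lowest for 25.1%, 31.7% and 23.9% of all corrected genes. The median log2 fold change of the 10 genes was -0.10 after the correction, beside -0.06 over all corrected genes, and 0 of the 10 met the criteria, where 3.22% of these genes did. *Per2* then had a log2 fold change of 0.017. The part of length and GC content in the clock values that remained was not tested.

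**Figure D4:**
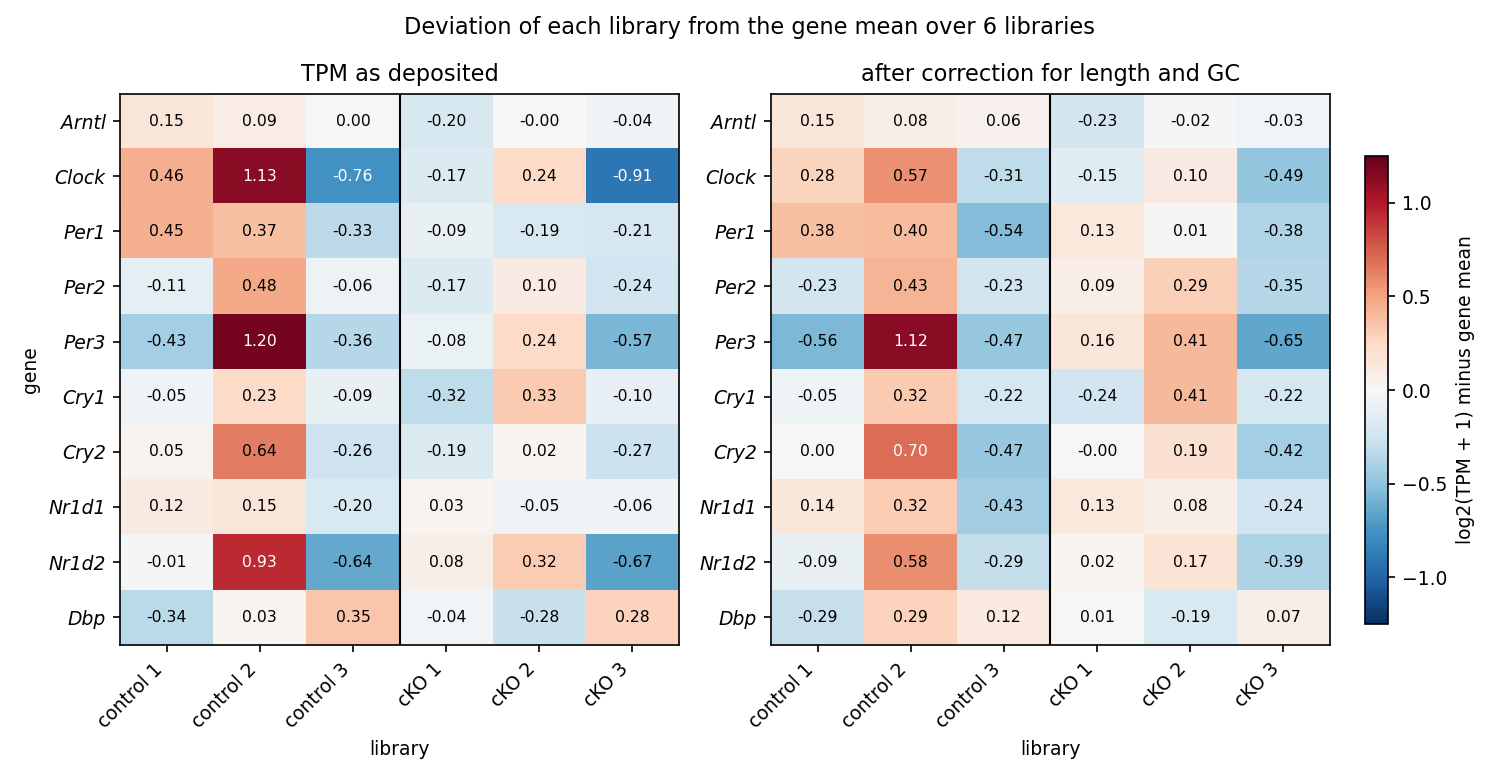
Deviation of log2(TPM + 1) in each library (columns) from the mean of the gene over the 6 libraries, for the 10 clock genes (rows), before (left) and after (right) correction for transcript length and GC content. *Clock*, *Nr1d2* and *Per3* reach 0.93 to 1.20 in control replicate 2 before the correction, and *Per3* still reaches 1.12 after it.

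The wider clock list held 23 genes, of which 19 were tested, and 1 of them, *Thra*, met the criteria, where 4.02% of all tested genes did. *Rora* encodes a receptor that activates *Arntl* at the element that the REV-ERB proteins occupy. *Rora* was at 9.52, 11.6 and 4.07 TPM in control against 5.43, 6.02 and 4.14 in cKO, and its groups overlapped. *Bhlhe40* and *Bhlhe41* encode repressors that compete for the E-box. *Bhlhe41* was at 3.69, 3.71 and 3.96 TPM in control against 2.81, 1.80 and 3.30 in cKO, without overlap between the groups, with an unadjusted p of 0.128 from limma. *Bhlhe40* had 13.3 to 18.5 TPM in control against 12.7 to 16.01 in cKO.

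*Tef* and *Hlf* encode relatives of DBP that bind the same D-box, and NFIL3 represses through it. *Tef* was the most abundant of these, at 33.5, 53.8 and 37.0 TPM in control against 21.5, 34.4 and 35.5 in cKO, with a log2 fold change of -0.44 (standard error 0.26, unadjusted p = 0.142 from limma). *Hlf* was at 3.81, 3.93 and 2.26 TPM in control against 2.01, 1.57 and 2.38 in cKO, and only cKO replicate 3 lay above the lowest control library. *Nfil3* was between 5.69 and 7.89 TPM in all 6 libraries, with a log2 fold change of 0.05. *Ciart*, a repressor that follows the E-box rhythm, was at 2.62, 2.66 and 1.26 TPM in control against 2.78, 2.15 and 2.29 in cKO.

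Other genes of the list encode enzymes that set the stability of the PER and CRY proteins. The casein kinase genes *Csnk1d* and *Csnk1e* had 50.6 to 59.0 and 46.1 to 61.96 TPM in control, against 35.8 to 52.3 and 39.3 to 56.1 in cKO. *Gsk3b* was at 45.3, 47.9 and 21.9 TPM in control against 21.9, 25.8 and 25.5 in cKO, with a log2 fold change of -0.56 (standard error 0.30, unadjusted p = 0.107 from limma). *Btrc* and *Fbxw11*, which encode subunits of the ligase that targets PER, had log2 fold changes of -0.21 and -0.18. The clock-linked genes *Nampt*, *Timeless*, *Usp2* and *Wee1* had log2 fold changes from -0.23 (*Nampt*) to 0.10 (*Wee1*). Over the 19 tested genes of the wider list 15 had a log2 fold change below 0 (14 with quantile normalization or after the correction), with a median of -0.24, where 60.3% of all tested genes were below 0 with a median of -0.07.

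Genes that respond to hormones, temperature or handling were read in the same libraries. Of 9 tested glucocorticoid targets, 0 met the criteria, where 4.02% of all tested genes did. *Fkbp5* was at 5.30, 4.84 and 5.06 TPM in control against 3.71, 5.58 and 3.88 in cKO. *Cdkn1a*, the most abundant of that list, had 408 to 499 TPM in control against 348 to 569 in cKO. Of 9 temperature-responsive genes, 2 met the criteria, the heat shock genes *Hspa1a* and *Hspa1b*, both lower in cKO, where 2.47% of all tested genes were called lower. Both were highest in control replicate 1 and lowest in cKO replicate 2, so the 2 calls may not be separate results. The 9 genes had a median log2 fold change of 0.02. Of them 4 were below 0 and 5 above it, or 7 and 2 with rescaled TPM. *Hspa1a* was at 56.9, 22.1 and 37.7 TPM in control against 9.58, 7.79 and 15.7 in cKO (log2 fold change -1.68, unadjusted p = 0.00289 from limma). *Hspa1b* was at 151, 65.8 and 77.5 TPM in control against 22.3, 20.1 and 31.7 in cKO. Neither *Hspa1a* nor *Hspa1b* had an adjusted p below 0.05 from limma. *Cirbp*, a cold-inducible RNA-binding protein gene whose RNA varies with the daily cycle of body temperature in adult tissues, had 200 to 223 TPM in control against 189 to 240 in cKO. *Hspa8* was the most abundant of that list, with 518 to 652 TPM in control against 550 to 661 in cKO.

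Of 8 tested immediate early genes, 2 met the criteria, *Junb* and *Ier2*, both higher in cKO, where 1.55% of all tested genes were called higher. *Junb* was at 34.7, 60.9 and 23.7 TPM in control against 68.9, 72.1 and 67.9 in cKO. *Ier2* was at 37.0, 66.7 and 28.6 TPM in control against 77.1, 74.2 and 69.3 in cKO. The log2 fold changes were 0.90 for *Junb* and 0.81 for *Ier2*, and all 8 were above 0 with a median of 0.85, or 7 of the 8 with rescaled TPM or after the length and GC correction. Neither *Junb* nor *Ier2* had an adjusted p below 0.05 from limma. After the length and GC correction neither they nor the rest of the 8 had an unadjusted p below 0.05 from limma. The corrected log2 fold changes from limma were 0.83 for *Junb* (unadjusted p = 0.0792) and 0.74 for *Ier2* (unadjusted p = 0.107). *Fos*, the most abundant of the list, was at 42.1, 248 and 12.7 TPM in control against 187, 182 and 140 in cKO, and its groups overlapped. The part of these genes in the clock values was not tested. Of the 7 enamel genes 0 met the criteria, beside the same 4.02% of all tested genes. The most abundant, *Amelx*, was at 170792, 163351 and 203538 TPM in control against 163658, 85454 and 178807 in cKO. All 7 had a log2 fold change below 0, with a median of -0.50 beside -0.07 over all tested genes, of which 60.3% were below 0. *Ambn*, which encodes the enamel matrix protein ameloblastin, was at 31405, 32180 and 33061 TPM in control against 24646, 8562 and 26263 in cKO, without overlap between the groups (unadjusted p = 0.0766 from limma, and 0.0493 after the correction). The part of enamel-secreting cells in the clock values was not tested.

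Markers of other cell types, which run clocks of their own, were summed in each library. The 6 erythroid markers, led by *Hbb-bs*, summed to 1761, 1326 and 1978 TPM in control against 1228, 1282 and 1161 in cKO, without overlap between the groups. The 4 endothelial markers, led by *Pecam1*, summed to 76.2, 44.1 and 65.0 TPM in control against 32.1, 35.4 and 51.7 in cKO. The criteria called 1 of 5 tested erythroid markers (*Hbb-bs*) and 2 of 4 endothelial markers (*Cdh5* and *Tek*), all lower in cKO, where 2.47% of all tested genes were called lower. All 4 endothelial markers had a log2 fold change below 0, with a median of -0.55. All 5 tested erythroid markers had a log2 fold change below 0, with a median of -0.43, and after the length and GC correction all 5 had an unadjusted p below 0.05 from limma, where 3.22% of the corrected genes did. The 7 skeletal muscle markers summed to 5.50 to 6.11 TPM in control against 3.61 to 7.23 in cKO. *Mylpf* led with 4.58 to 5.55 TPM in control against 3.25 to 5.48 in cKO, and the defining markers *Acta1*, *Ckm*, *Tnnt3*, *Myh3*, *Myh8* and *Ttn* were at or below 0.85 TPM. The 5 immune markers, led by *C1qa*, summed to 17.4 to 32.8 TPM in control against 19.8 to 21.6 in cKO. The 8 odontoblast and mesenchyme markers summed to 6905, 4435 and 3520 TPM in control against 4456, 5010 and 4692 in cKO, with 0 of them meeting the criteria. Of the 7 dental epithelium markers, led by *Krt5*, 0 met the criteria as well, beside 4.02% of all tested genes for both lists. The part of other cell types in the clock values was not tested.

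The genes whose profiles over the 6 libraries were most like those of *Arntl* and *Dbp* were found by the root mean square difference of centred log2(TPM + 1). For *Arntl* they were *Ptbp1*, *Gtf2f1*, *Ube2j2*, *Tpm3* and *Coa5*, with differences of 0.02 to 0.03, beside a median of 0.27 over all tested genes. *Ptbp1* was at 194, 184 and 178 TPM in control against 154, 180 and 173 in cKO. For *Dbp* they were *Fndc10*, *Tulp1*, *Klk15*, *Ssr4* and *Tusc2*, with differences of 0.09 to 0.11, beside a median of 0.43. *Fndc10* was at 15.4, 17.5 and 21.3 TPM in control against 15.5, 14.0 and 21.9 in cKO, so that, as for *Dbp*, the libraries numbered 3 were the highest of each group. These 10 genes are the nearest of 13719 and are given as a description. No gene of the clock lists was among them. With only 10 clock genes and 19 of the wider list tested, that absence is not read as a result.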

How the data were processed

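Reads had been trimmed (SeqPrep, Sickle), aligned (HISAT2) and turned into gene abundance (RSEM) by the authors, and the submitters' processing notes also name StringTie. The deposited values were read as TPM: the library sums, 983952 to 993946, are nearly equal, although the methods name FPKM. The authors' genome build and annotation are not given in the sources used here. Positions, and length and GC content of the longest protein-coding transcript, came from GENCODE M21 (GRCm38), which held 99.5% of the identifiers.

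The clock genes and every gene list were chosen with earlier results of these data known. The genes named were the 10 clock genes, listed genes that reached a mean of 1 TPM, in other lists the most abundant gene and those meeting the criteria, and the 5 nearest profiles. *Ambn*, *Fkbp5*, *Cirbp*, *Krt14*, *Npas2*, *Arntl2* and the muscle markers were named after their values were seen. Some listed genes are not reported here.

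Fits used limma 3.58.1 in R 4.3.3 (lmFit, eBayes with a mean-variance trend, no block) on log2(TPM + 1), a scale that understates changes of low genes, and were tested on simulated data. Single values were compared by exact permutation. The correction took out of each library a natural spline (4 degrees of freedom) of transcript length and of GC content, for 13707 genes. Nothing says whether pools came from separate litters, so p-values measure the spread between these libraries, which may be technical. Depth is unknown, and the number of libraries limits precision. Alternatives were a pseudocount of 0.1, no filter, quantile normalization, TPM rescaled over protein-coding genes other than *Amelx* and *Ambn*, Student's test on unlogged TPM, the replicate block, the correction, both together, and leaving out each library.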

Additional observations from a re-analysis of the deposited data

How the results depend on the processing

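No clock gene reached an adjusted p below 0.05 in any of 14 alternatives. The criteria called 0 of the 10 in 12 of them, 1 (*Clock*) with the replicate block, and 2 (*Clock* and *Per1*) without control replicate 3, where 8.45% of all tested genes were called, so that leaving out 1 library gave 0 to 2. Groups that did not overlap, 1 in the main comparison, came to 1 to 5 with 1 library left out, 5 without control replicate 3 (27.6% of all tested genes) and 3 without cKO replicate 2 (16.9%), where fewer libraries make overlap rarer by construction; with quantile normalization the 1 gene was *Cry2*, not *Arntl*. Log2 fold changes turned above 0 with quantile normalization for *Cry1* (0.046), *Nr1d1* (0.048) and *Dbp* (0.079), and with the length and GC correction, with or without the block, for *Per2* (0.017). With 1 library left out they ranged from -0.56 to 0.26 for *Per3*, -0.24 to 0.080 for *Cry1*, -0.16 to 0.014 for *Nr1d1*, -0.55 to 0.24 for *Nr1d2* and -0.20 to 0.14 for *Dbp*. The cause was not tested.

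Over all tested genes, 552 met the criteria (213 higher, 339 lower), against 324 higher and 325 lower with quantile normalization, 102 higher and 637 lower with rescaling, 940 genes without a filter, and 204 to 1159 with 1 library left out (the latter without control replicate 3). Adjusted p below 0.05 was reached by 2 genes, by 4 with a pseudocount of 0.1, quantile normalization or the block, by 1 without a filter or with the correction (block or not), by 0 with rescaling (739 at an unadjusted p below 0.05) or Student's test (544), and by 2 to 9 with 1 library left out. The median log2 fold change was -0.07 over the 13719 genes tested and -0.12 over the 12191 genes of the rescaled fit, which differ in both scaling and gene set.

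In the fit with the replicate block, 1315 genes (9.59%) were called by the criteria, and 1007 with the correction as well; *Clock* had an unadjusted p of 0.0300 and an adjusted p of 0.507 from limma, and 0.0538 unadjusted with both. With both, *Junb* and *Ier2* had unadjusted p of 0.0204 and 0.0315 from limma. Deviations of same-numbered libraries correlated at -0.08, 0.29 and 0.40 across genes, and control replicate 1 did not correlate best with its own number. The paper's methods speak of replicates in 3 pairs but do not say what a pair shared, and no label says what a number shares. The libraries were therefore not treated as pairs in the main fit.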
